A study of Rattus norvegicus with 36 samples.

Results

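The myogenic regulatory factors Myog (myogenin), Myod1 (MyoD) and Myf6 (MRF4), their partner Mef2d, the transcription factor Runx1 and the embryonic myosin heavy chain Myh3 were followed in rat skeletal muscle after a bout of resisted contractions. The 6 genes were taken by the gene symbol that the array platform gives each probe set, whatever its values, out of 4736 genes so named. They had 10 of the 8740 probe sets that are not controls: 5 for Myh3 and 1 for each factor. All 10 were above the floor of the fit on enough arrays to be among the 6707 probe sets tested.

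The series holds 36 one-colour arrays of RNA from muscle that the source label calls "ta". Exercised muscle was collected 6 h after the contractions for polysomal RNA, the RNA on polyribosomes (8 arrays), and for total RNA (8 arrays), and 1 h after them for polysomal RNA (4 arrays) and total RNA (4 arrays). The remaining 12 arrays come from muscle for which no contractions are named. On 8 of them title and description both name polysomes (the polysomal control). The other 4 are titled as 1hr polysome but described without polysomes (the control titled 1hr polysome). Both control descriptions give 1 h. Titles number the samples 1 and 2, or 1 to 4, with 2 arrays to a number, and these 2 arrays were averaged to 1 replicate. Strain, sex and age are not given in the sources used here, and the labels do not say whether a number is an animal. The p-values thus reflect the spread of these samples alone, and that spread may be technical.

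MyoD, myogenin and MRF4 are basic helix-loop-helix proteins that bind the E-box, a short DNA motif, in the control regions of muscle genes. MEF2 proteins such as Mef2d join them at neighbouring sites. In adult fibres MRF4 is the most abundant of these factors, and the RNAs of myogenin, MyoD and Runx1 are known to be higher in denervated muscle. Embryonic myosin heavy chain belongs to developing and regenerating fibres and is largely replaced by the adult fast and slow chains.

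Signals are given as deposited, on a linear scale, and a level is compared only within a probe set. In the fit, signals under the floor of 129.5 were set to it, so a difference that involves such arrays is set in part by the floor. All 5 fibre markers on the array were above the floor somewhere, and their summed signal ran from 22098 to 92722 in 6 h polysomal RNA and from 24854 to 170035 in the polysomal control. The ratio of the 3′ to the 5′ probe set of beta-actin was 1.58 to 4.48 on the arrays of the 3 polysomal groups and 1.01 to 1.62 on 10 of the 12 arrays of total RNA. The other 2, number 3 of 6 h total RNA, stood apart, with ratios of 9.01 and 11.5 and a mean correlation with the other arrays of 0.83, against 0.886 or more elsewhere. A single array of the control titled 1hr polysome, in its number 2, had a ratio of 1.07, inside the range of total RNA, where its other 3 arrays had 1.99 to 2.73. Between polysomal and total RNA this ratio thus differed too, and its part in differences between the fractions was not tested.

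Calls were few among the members. A probe set was called where the adjusted p of limma was under 0.05. Against the polysomal control, 6 h polysomal RNA had 1 of the 10 probe sets called (Runx1, higher), with 0.343% of all tested probe sets called. Total RNA at 1 h had 1 called (Myh3, higher) against the control titled 1hr polysome, where 0.0745% were. Polysomal against total RNA gave 3 lower calls at 6 h (Mef2d and 2 of Myh3), with 8.77% called in all, and 2 lower calls at 1 h (both of Myh3), with 0.388%. Total RNA at 6 h had 2 Myh3 probe sets lower than at 1 h, where 0.0596% of all were called.

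The remaining 5 comparisons had 0 calls by limma, 0% of the tested probe sets, members or not. They were 1 h polysomal RNA against the control titled 1hr polysome (299 probe sets at an unadjusted p under 0.05), 6 h against 1 h polysomal RNA (366), and the polysomal control against the control titled 1hr polysome (367). The last 2 tested the change between 1 h and 6 h, once of the polysomal minus total difference (372) and once of the polysomal response (173).

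The promoters of Myf6, Myog and Myh3 are shown because every array of 1 h total RNA lay above the control titled 1hr polysome for these genes (for Myh3, by 4 of its probe sets). The windows, from the RefSeq rat annotation (GRCr8), hold 250 bases before and 50 after the annotated start, 5′ to 3′ on the gene's strand, with E-boxes (CANNTG) in capitals. The regions are chr7:44701264-44701563 (minus strand) for Myf6, chr13:48297226-48297525 (plus strand) for Myog and chr10:52268935-52269234 (plus strand) for Myh3.
Myf6: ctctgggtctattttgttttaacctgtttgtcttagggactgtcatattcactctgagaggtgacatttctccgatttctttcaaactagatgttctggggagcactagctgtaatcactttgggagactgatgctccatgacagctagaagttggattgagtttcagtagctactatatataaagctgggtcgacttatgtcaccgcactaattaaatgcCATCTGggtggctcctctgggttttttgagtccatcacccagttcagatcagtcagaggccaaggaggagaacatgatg
Myog: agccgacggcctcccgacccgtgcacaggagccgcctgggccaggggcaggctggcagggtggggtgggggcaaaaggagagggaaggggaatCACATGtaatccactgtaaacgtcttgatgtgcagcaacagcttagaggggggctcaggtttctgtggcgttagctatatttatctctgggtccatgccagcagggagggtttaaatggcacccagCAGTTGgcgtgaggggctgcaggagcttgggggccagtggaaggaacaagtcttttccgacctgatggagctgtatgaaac
Myh3: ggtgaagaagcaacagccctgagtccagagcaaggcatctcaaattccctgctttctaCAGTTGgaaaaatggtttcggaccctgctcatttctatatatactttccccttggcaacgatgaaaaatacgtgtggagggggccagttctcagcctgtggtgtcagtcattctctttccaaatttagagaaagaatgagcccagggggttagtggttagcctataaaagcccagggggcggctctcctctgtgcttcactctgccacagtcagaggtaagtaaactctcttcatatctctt
Myf6 had 1 E-box, CATCTG, first base at -29 from the start, and a match to the MEF2 consensus, CTATATATAA, at -76. Myog had 2, CACATG at -157 and CAGTTG at -31. Myh3 had 1, CAGTTG at -192, and the RUNX motif TGTGGT at -96. Both strands were searched and no 2 matches overlapped. Of the 6 genes 5 were matched in the table, Myod1 not. The Runx1 window had 1 E-box and that of Mef2d none. Among all 33469 promoter windows of this length, 72.1% held an E-box, 17.3% TGTGGT and 3.29% the MEF2 consensus. These matches describe letters, not binding.

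Myod1, which commits cells to the muscle lineage, had signals of 1133 to 2398 (median 1768) in 6 h polysomal RNA, against 689 to 1047 (median 883) in the polysomal control. No array of the exercised group overlapped the control. The difference was 0.98 on the log2 scale (SE 0.29, 1.98-fold) and did not pass in limma (adjusted p = 0.273). By number it was 1.15, 0.58, 0.59 and 1.61, above 0 in all 4. Total RNA at 6 h ranged widely, from 963 to 3013 with a median of 1954.

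At 1 h the arrays of Myod1 overlapped that control in both fractions. Polysomal RNA gave 1024, 898, 1427 and 1313, against 962, 850, 733 and 824 in the control titled 1hr polysome. The lowest exercised array lay below the highest control array, and the log2 difference of 0.45 (SE 0.41) did not pass (adjusted p = 1). Total RNA gave 1204, 1318, 947 and 1077 (log2 difference from that control 0.43, SE 0.41, adjusted p = 0.788). Polysomal and total RNA did not differ beyond their spread at either time, with log2 differences of -0.05 at 6 h (adjusted p = 0.925) and 0.02 at 1 h (adjusted p = 1; 95% interval -0.86 to 0.91).

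Myog, which drives the differentiation of myoblasts, varied most between numbers. Its signals in 6 h polysomal RNA ran from 793 to 3546 (median 2129), against 75 to 1689 (median 860) in the polysomal control. By number the geometric means after the floor of 129.5 were 3118, 3057, 895 and 1307 in 6 h polysomal RNA, against 1164, 1482, 305 and 162 in the polysomal control. Numbers 1 and 2 were thus high and numbers 3 and 4 low in both groups, and the exercised sample was higher within all 4 numbers. The GAPDH 3′/5′ ratio stood low on 1 array of each of numbers 1 and 2 in the polysomal control, at 0.074 and 0.037. In 6 h polysomal RNA the matching arrays had 0.416 and 0.070. Of these, 0.416 lay within the 0.363 to 1.298 of the other 12 arrays. The other array of these numbers had Myog signals of 2742 and 2959 in 6 h polysomal RNA and 1229 and 1689 in the polysomal control, again above both arrays of numbers 3 and 4 in its group. The log2 difference of 1.76 (SE 0.77, 3.38-fold), with 1 control array at the floor, did not pass (adjusted p = 0.787). With the number as a block it had an SE of 0.50 and an adjusted p of 0.233.

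At 1 h the Myog signal was lower in polysomal than in total RNA within both numbers, though the arrays overlapped. Polysomal RNA gave 92, 102, 787 and 1517, and total RNA 1044, 1248, 2936 and 3206. Number 1 lay under the floor of 129.5 on both polysomal arrays. The polysomal level was lower by a log2 difference of -2.31 with these arrays at the floor, which bounds its size from below, and this did not pass (adjusted p = 0.319). In number 2, with no array under the floor, the difference was -1.49. In the control titled 1hr polysome Myog gave 354, 158, 237 and 589, below every array of 1 h total RNA. That log2 difference of 2.65 (SE 1.09, 6.29-fold) did not pass (adjusted p = 0.363). If the title of that control holds, fraction and contraction cannot be told apart in it. In 1 h polysomal RNA the difference from that control, with number 1 at the floor, was 0.34 and did not pass. Total RNA at 6 h ran from 298 to 2316 (median 1632), with the array at 298 in number 3, the one that stood apart.

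Myf6, the factor of mature fibres, had signals of 4420 to 6610 (median 5005) in 6 h polysomal RNA, against 1915 to 3303 (median 2205) in the polysomal control. The groups did not overlap. The difference was 1.08 (SE 0.33, 2.11-fold) and did not pass over all probe sets (adjusted p = 0.289). Within numbers 1 to 4 it was 1.06, 0.96, 1.17 and 1.14, the narrowest spread of the 5 factors. With the number as a block the SE was 0.23 and the adjusted p 0.0713, and with that block and only these 2 groups in the fit the SE was 0.05 and Myf6 passed (adjusted p = 0.0324).

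Total RNA at 1 h held the highest group level of Myf6, with 6625, 8105, 9922 and 9891. The control titled 1hr polysome had 2245, 1812, 2128 and 3518, and did not overlap it. The difference of 1.86 (SE 0.46, 3.63-fold) did not pass (adjusted p = 0.166). Without the array of that control whose beta-actin ratio lay in the range of total RNA it was 2.04 and passed (adjusted p = 0.0363), as it did against the polysomal control (1.83, adjusted p = 0.0161). Against the polysomal control, and against the other if its title holds, fraction and contraction cannot be told apart. In 1 h polysomal RNA the log2 difference of Myf6 from the control titled 1hr polysome was 0.61 and did not pass. Polysomal RNA at 1 h gave 2836, 3042, 4195 and 4592, below every total RNA array, with a log2 difference from total RNA of -1.25 (SE 0.46, adjusted p = 0.2). At 6 h the fractions overlapped (log2 difference 0.08, SE 0.33, adjusted p = 0.898), and total RNA ran from 1773 to 9338 (median 5987). The 2 arrays of number 3 were at 1773 and 2337, and without this number the 6 h difference was -0.34.

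**Figure D1:**
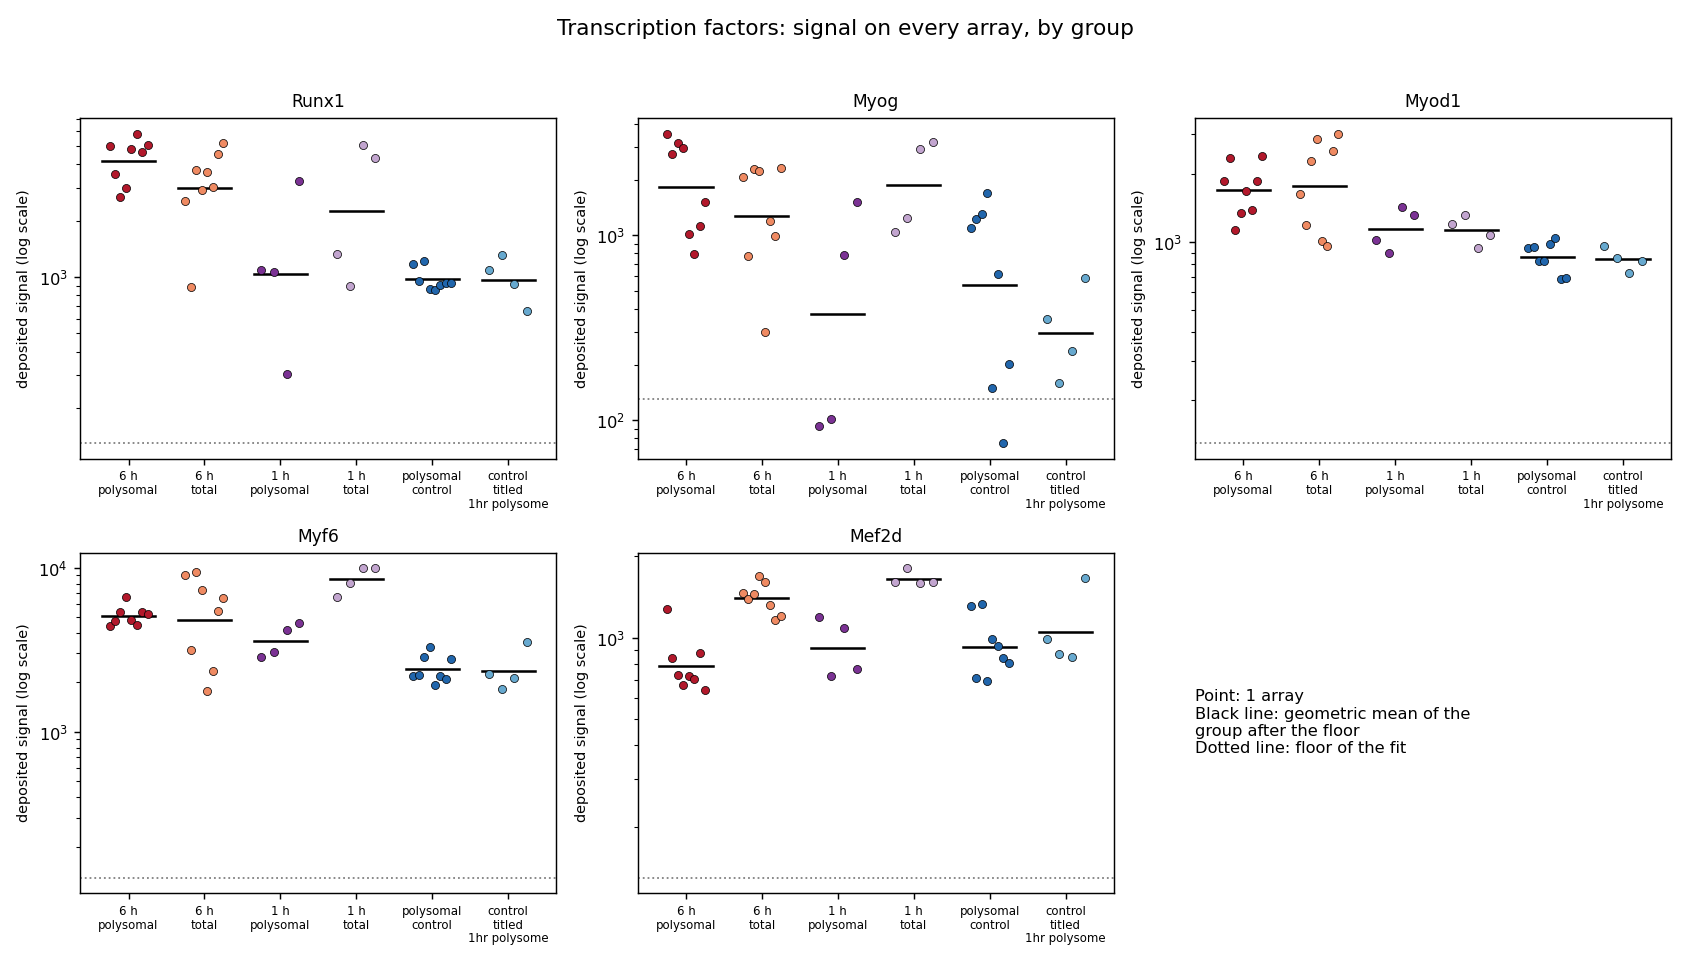
Deposited signal (log axis) of the probe sets of Runx1, Myog, Myod1, Myf6 and Mef2d on each of the 36 arrays (points), by group, with the geometric mean of the group after the floor (black line) and the floor of 129.5 (dotted). The arrays of Runx1 in 6 h polysomal RNA lie at 2669 to 5839, above all 8 of the polysomal control at 849 to 1220, while Mef2d is higher in both total RNA groups than in polysomal RNA.

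Mef2d, a MADS-box partner of these factors, was called for its fraction at 6 h and in no comparison with a control. Its signals were 643 to 1276 (median 723) in 6 h polysomal RNA, against 1164 to 1691 (median 1425) in 6 h total RNA. A single polysomal array, at 1276, overlapped total RNA, and Mef2d was lower within all 4 numbers, by log2 differences of -0.46, -1.17, -1.03 and -0.66. Mef2d was 1.78-fold lower in polysomal RNA (log2 -0.83, SE 0.15, adjusted p = 0.00535), where the median of all probe sets was -0.16. Without number 3 of total RNA the difference was -0.81 (adjusted p = 0.00886). The beta-actin ratio was 2.545 to 4.476 in 6 h polysomal RNA and 1.007 to 1.582 in 6 h total RNA outside number 3. Its part in the Mef2d difference was not tested.

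At 1 h Mef2d gave 1193, 722, 1089 and 764 in polysomal RNA, against 1612, 1811, 1593 and 1602 in total RNA. The groups did not overlap, and the log2 difference of -0.84 (SE 0.21) was close to that at 6 h, but did not pass (adjusted p = 0.0858). The change of the fraction difference between the times was 0.01 (95% interval -0.53 to 0.56, adjusted p = 0.998). In 6 h polysomal RNA Mef2d differed from the polysomal control, at 694 to 1331 (median 888), by -0.23 (SE 0.15, adjusted p = 1). The control titled 1hr polysome gave 990, 868, 852 and 1660, and the last, the array with a beta-actin ratio like that of total RNA, was also level with the total RNA arrays. Total RNA at 1 h stood 0.65 above that control (SE 0.21, adjusted p = 0.26), and 0.89 above it without that array (adjusted p = 0.0363). If the title of that control holds, fraction and contraction cannot be told apart in these values. In 1 h polysomal RNA the log2 difference of Mef2d from that control was -0.19 and did not pass.

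Runx1, a runt-domain transcription factor that is low in innervated fibres and is also a factor of blood cells, was the 1 factor called against a control. Its signals in 6 h polysomal RNA were 2669 to 5839 (median 4733), against 849 to 1220 (median 932) in the polysomal control. The lowest exercised array was above the highest control array. The geometric means were 4188 in 6 h polysomal RNA and 972 in the polysomal control (log2 12.03 ± 0.40 and 9.92 ± 0.12, SD, n = 4 numbers each). Runx1 rose 4.31-fold in 6 h polysomal RNA (log2 2.11, SE 0.40, 95% interval 1.26 to 2.96, limma adjusted p = 0.0333), and by 1.99, 1.46, 2.59 and 2.38 within the 4 numbers.

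The call for Runx1 lay near the threshold. With the number as a block over all groups it held (adjusted p = 0.0396), but not in the blocked fit of these 2 groups alone (adjusted p = 0.087). The first fit also takes numbers to match across the times, where no such match was seen. It was lost when any 1 number other than number 2 of the exercised group was left out (log2 1.99 to 2.15, adjusted p 0.0901 to 0.148), and against the control titled 1hr polysome (log2 2.12, adjusted p = 0.106). The 13 macrophage and other haematopoietic marker genes on the array, none at the floor on every array, had a summed signal of 8400.1 to 21272 in 6 h polysomal RNA and 6855 to 11444 in the polysomal control. None of the 12 tested was called in this comparison (limma). An unadjusted p under 0.05 was seen for 4 of the 12, against 380 of all 6707 probe sets. The median of the summed signal was 14280.5 in 6 h polysomal RNA and 10470.5 in the polysomal control. The part of such cells in the Runx1 result was not tested. The descriptions give 6 h for the exercised muscle and 1 h for the control, and if they hold, time and contraction cannot be told apart. In these bulk samples, more cells of a type and more RNA per cell cannot be told apart, here or for the other members.

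In the other groups Runx1 was uneven between arrays. Total RNA at 6 h gave 882 to 5229 (median 3336), and polysomal RNA at that time did not differ from it beyond the spread (log2 0.48, SE 0.40, adjusted p = 0.451). At 1 h polysomal RNA gave 1090, 1064, 302 and 3268, against 1096, 1317, 914 and 657 in the control titled 1hr polysome. Of the 2 polysomal arrays of number 2, 1 lay below and 1 above all 4 of that control. The 1 h polysomal difference from it was 0.10 (SE 0.56, adjusted p = 1), or 0.96 without the array at 302 (adjusted p = 1). Total RNA at 1 h gave 1336 and 892 in number 1, and 5076 and 4316 in number 2. Its difference from that control, 1.23 (SE 0.56, adjusted p = 0.443), had both arrays of number 2, and 1 of the 2 of number 1, above all 4 of that control. Polysomal RNA at 6 h stood 2.02 above that at 1 h (SE 0.49, adjusted p = 0.532), and 1.16 above it without the array at 302 (adjusted p = 1).

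Set in order by geometric mean, Runx1 stood at 4188 in 6 h polysomal, 2995 in 6 h total, 2260 in 1 h total and 1035 in 1 h polysomal RNA, then at 972 in the polysomal control and 965 in the control titled 1hr polysome. No neighbours in this order that were tested against each other differed beyond their spread (adjusted p 0.351 to 1). Runx1, Myod1 and Myf6 were the 3 of 10 member probe sets whose arrays in 6 h polysomal RNA all lay above the polysomal control, a pattern seen in 1.18% of all tested probe sets.

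**Figure D2:**
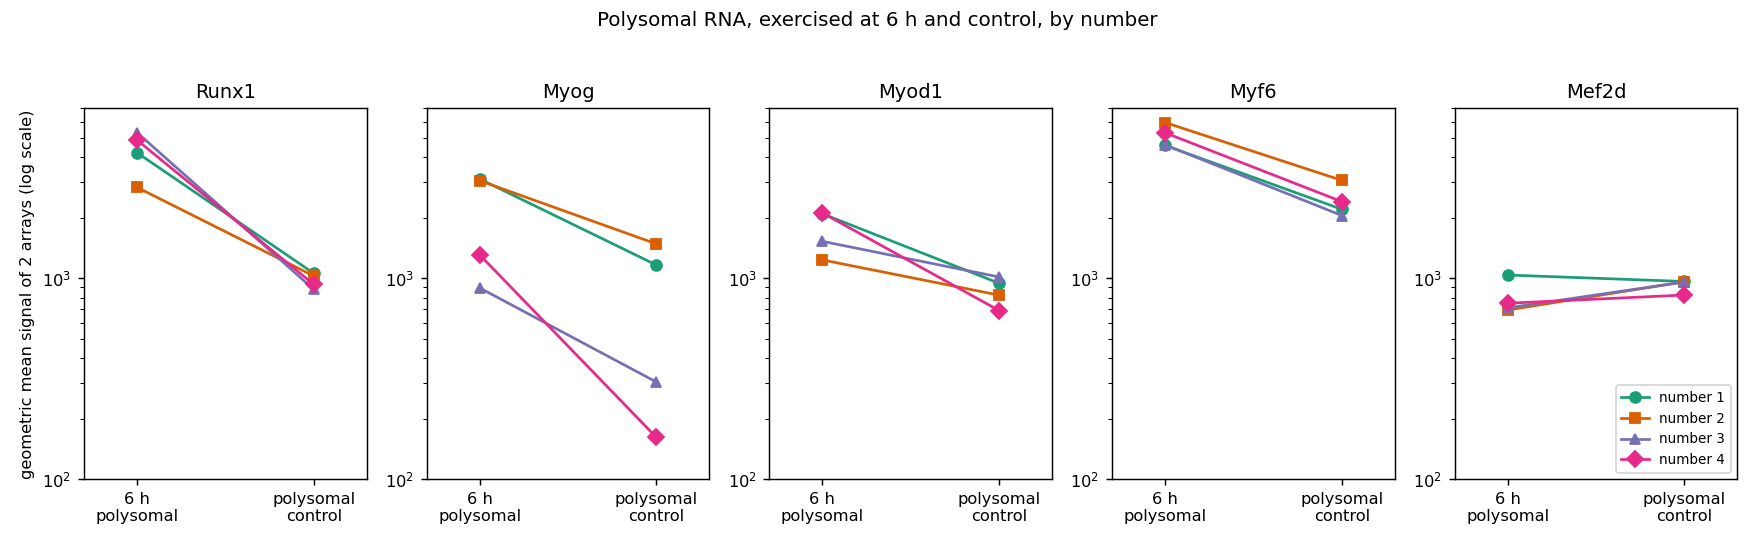
Geometric mean signal (log axis) of the 2 arrays of each number in 6 h polysomal RNA (left) and the polysomal control (right) for the 5 factors, with 1 line per number. All 4 lines of Runx1, Myog, Myod1 and Myf6 lie higher at 6 h than in the control, the Myog lines keep numbers 1 and 2 above 3 and 4 in both groups, and Mef2d shows 3 lines lower and 1 higher in exercised muscle.

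Myh3 was measured by 5 probe sets of different brightness, 4 of them with a suffix (_s_at) that marks probes matching more than 1 transcript. In 1 h total RNA probe set M12098_s_at gave 1698, 1395, 3959 and 4196, against 224, 162, 220 and 651 in the control titled 1hr polysome. The groups did not overlap, and number 2 of total RNA was above number 1. Myh3 by this probe set rose 9.33-fold in 1 h total RNA (log2 3.22, SE 0.47, limma adjusted p = 0.0164).

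The other 4 Myh3 probe sets had positive differences that did not pass. X04267_at, the brightest and the only one without the suffix, gave 8487, 6477, 12569 and 11982 in 1 h total RNA, against 3098, 2683, 3007 and 5557 in the control titled 1hr polysome (log2 1.47, SE 0.44, adjusted p = 0.243). K03467_s_at gave 324, 447, 818 and 1097, against 50, 54, 56 and 305 in that control. With 3 of these 4 control arrays under the floor, the difference is a bound, at least 3.74-fold, and did not pass (adjusted p = 0.0811). K03468_s_at gave 460, 425, 840 and 765, against 257, 274, 267 and 213 in that control (log2 1.24, SE 0.39, adjusted p = 0.253). The fifth, L00370cds_s_at, stayed near the floor, with 18 of 36 arrays above it, and had a difference of 0.04 (adjusted p = 0.999). With Myog and Myf6, 4 Myh3 probe sets made up the 6 of 10 member probe sets whose arrays all lay above that control, where 6.23% of all probe sets did. These 4 are of 1 gene and correlated with each other at 0.65 to 0.90 over the 18 replicates, so they are not separate results.

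This comparison carries limits. If the title of that control holds, fraction and contraction cannot be told apart in it, since the exercised RNA is total and the control polysomal. The Myh3 signals of 5557, 651 and 305 in that control came from its 1 array with a beta-actin ratio like that of total RNA. Without that array the log2 difference of M12098_s_at was 3.61 (adjusted p = 0.00342), and 5 member probe sets were called, namely Myf6, Mef2d and X04267_at, M12098_s_at and K03467_s_at of Myh3, with 202 called in all. Without number 2 of 1 h total RNA it was 2.52 (adjusted p = 0.214), without number 1 of the control 2.73 (adjusted p = 0.282) and without number 2 of the control 3.72 (adjusted p = 0.064).

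**Figure D3:**
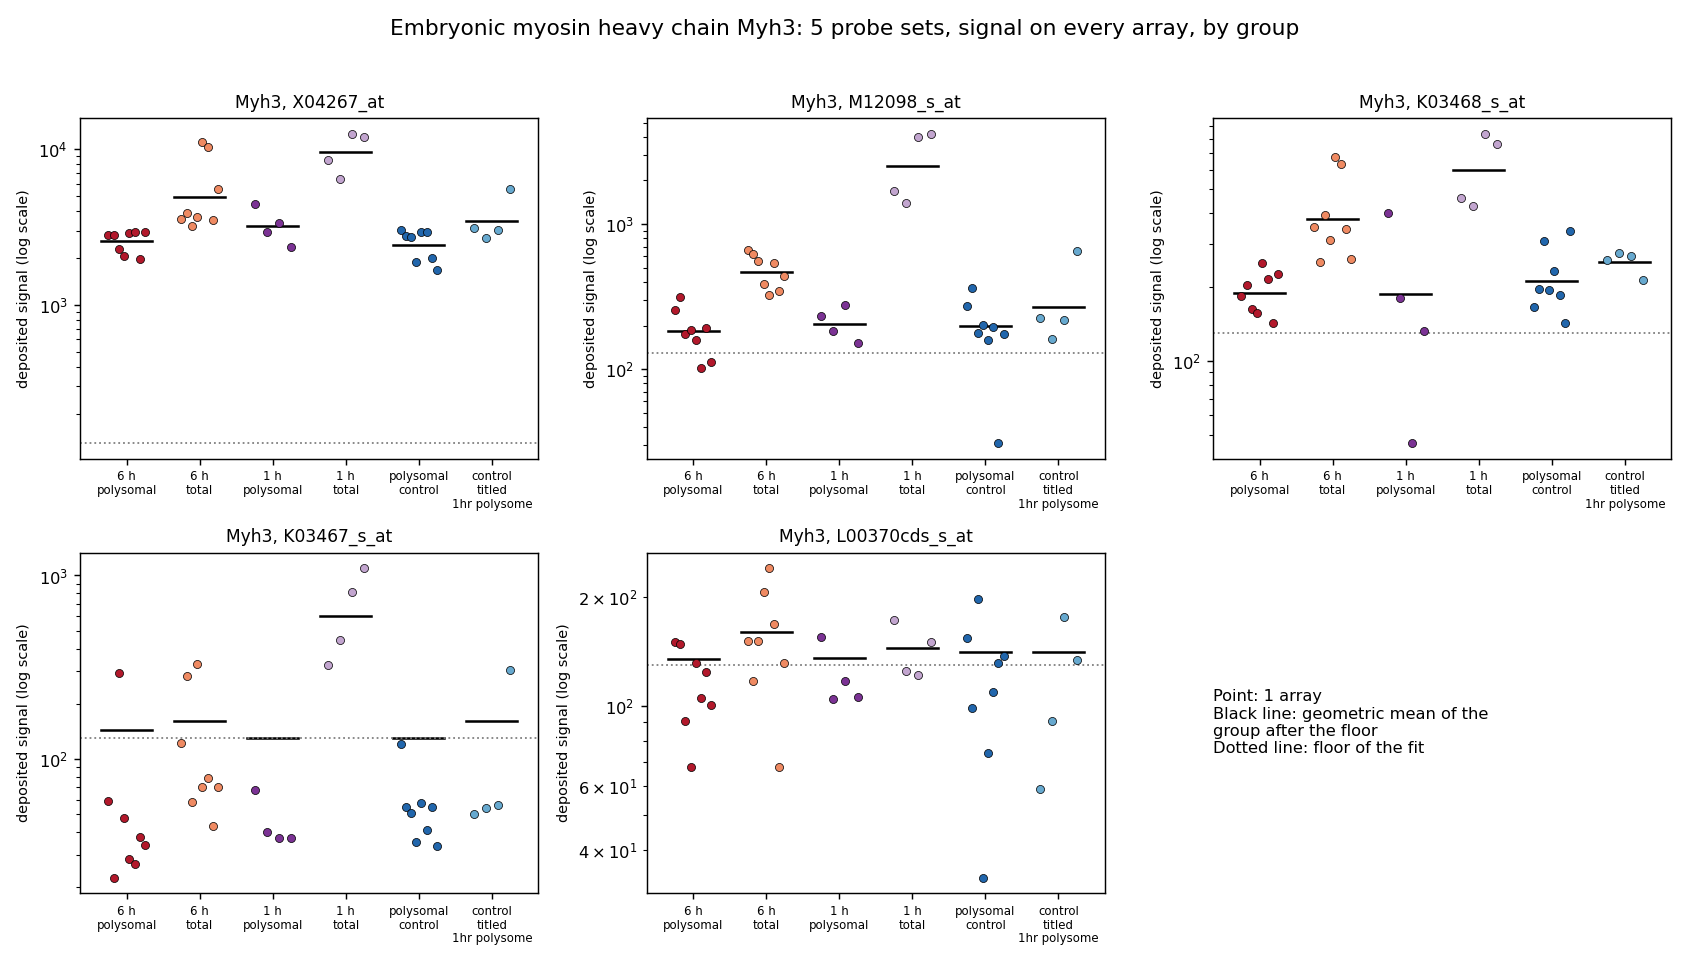
Deposited signal (log axis) of the 5 Myh3 probe sets on each array (points), by group, with the geometric mean after the floor (black line) and the floor of 129.5 (dotted). In 4 of the 5 panels the 4 arrays of 1 h total RNA stand above every array of 1 h polysomal RNA and of the control titled 1hr polysome, and L00370cds_s_at lies near the floor in all groups.

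At 1 h Myh3 was lower in polysomal than in total RNA by 2 probe sets. M12098_s_at gave 234, 183, 276 and 151 in 1 h polysomal RNA, against 1698, 1395, 3959 and 4196 in 1 h total RNA. It was 12.2-fold lower in polysomal RNA (log2 -3.61, SE 0.47, adjusted p = 0.00474). K03467_s_at gave 68, 40, 37 and 37 in polysomal RNA, all under the floor, against 324 to 1097 in total RNA. The polysomal level was at least 4.63-fold lower (adjusted p = 0.0281). X04267_at gave 4461, 2947, 3343 and 2359 in polysomal RNA, against 6477 to 12569 in total RNA, a log2 difference of -1.58 (SE 0.44, adjusted p = 0.104). K03468_s_at stood at -1.67 (SE 0.39, adjusted p = 0.072). The beta-actin ratio was 2.003 to 4.284 in 1 h polysomal RNA and 1.22 to 1.622 in 1 h total RNA. Its part in these Myh3 differences was not tested.

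Against the control titled 1hr polysome, the 5 Myh3 probe sets in 1 h polysomal RNA had log2 differences of -0.43 to -0.06, all with an adjusted p of 1. Myf6, Mef2d and 4 Myh3 probe sets, again of 1 gene, were the 6 of 10 member probe sets whose 1 h polysomal arrays all lay below total RNA, against 13.2% of all probe sets. With the number as a block 4 member probe sets were called in this fraction comparison at 1 h, among 206 probe sets in all. Without number 2 of 1 h total RNA, M12098_s_at stood at -2.90 (adjusted p = 0.0736) and K03467_s_at had an adjusted p of 0.204. Without number 2 of 1 h polysomal RNA M12098_s_at stood at -3.60 (adjusted p = 0.069) and K03467_s_at had an adjusted p of 0.165.

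At 6 h Myh3 was also lower in polysomal than in total RNA by 2 probe sets. M12098_s_at gave 102 to 314 (median 180) in 6 h polysomal RNA, against 326 to 663 (median 488) in 6 h total RNA, without overlap. It was 2.55-fold lower in polysomal RNA (log2 -1.35, SE 0.33, adjusted p = 0.0233), by -1.18, -1.36, -1.55 and -1.30 within the numbers. K03468_s_at, at 142 to 250 (median 193) in 6 h polysomal RNA and 252 to 675 (median 348) in 6 h total RNA, was 1.99-fold lower (log2 -0.99, SE 0.28, adjusted p = 0.0387). X04267_at did not overlap either and stood at -0.96 (SE 0.31, adjusted p = 0.0675). These were the 3 of 10 member probe sets, all of 1 gene, whose 6 h polysomal arrays all lay below total RNA, against 1.16% of all probe sets. The part of the beta-actin ratio, which differed between these fractions, was not tested.

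Number 3 of 6 h total RNA stood high in 2 of these probe sets. X04267_at was at 11148 and 10275 on its arrays, where the other 6 arrays of 6 h total RNA ran up to 5567, and K03468_s_at was at 675 and 635 on them. Without this number the difference was -0.73 for K03468_s_at (adjusted p = 0.0712), -0.59 for X04267_at (adjusted p = 0.104) and -1.40 for M12098_s_at, which still passed (adjusted p = 0.034). Leaving out 1 number at a time, M12098_s_at passed in 4 of 8 fits, not without number 1 of total RNA (-1.20, adjusted p = 0.0582) nor without number 2, 3 or 4 of polysomal RNA (adjusted p 0.058 to 0.0695). K03468_s_at passed in 2 of 8, without number 1 or number 4 of total RNA, and the other 6 gave adjusted p-values of 0.056 to 0.106. Mef2d passed in 8 of 8.

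Total RNA at 6 h had less Myh3 than at 1 h by 2 probe sets. M12098_s_at fell to 326 to 663 at 6 h, against 1698, 1395, 3959 and 4196 at 1 h (5.34-fold lower, log2 -2.42, SE 0.40, adjusted p = 0.0444). K03467_s_at, under the floor on 6 of 8 arrays at 6 h, was at least 3.74-fold lower than at 1 h (adjusted p = 0.0444). X04267_at stood at -0.94 (adjusted p = 0.597). Without number 2 of 1 h total RNA neither call held, with log2 -1.71 (adjusted p = 0.77) for M12098_s_at and an adjusted p of 0.629 for K03467_s_at. Nor did either hold without number 2, 3 or 4 of 6 h total RNA (adjusted p 0.0541 to 0.139). No control is labelled as total RNA throughout, so 6 h total RNA was set against none. In 6 h polysomal RNA against the polysomal control the 5 probe sets lay between -0.16 and 0.15 (adjusted p = 1), and in X04267_at the signals were 1985 to 2934 in exercised and 1681 to 3045 in control muscle.

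The narrowing of the Myh3 fraction difference between the times did not pass. It was 2.26 (SE 0.57, adjusted p = 0.849) for M12098_s_at. K03467_s_at, with most arrays outside 1 h total RNA under the floor, had an adjusted p of 0.699, and passed without number 1 of 1 h total RNA (adjusted p = 0.0146). For the factors the same change was 2.84 for Myog (SE 1.34, with the 1 h polysomal arrays of number 1 at the floor), 1.61 for Runx1 (SE 0.69) and 1.32 for Myf6 (SE 0.57), each with an adjusted p of 0.849. The polysomal response of Runx1 was 2.01 larger at 6 h than at 1 h (SE 0.69, adjusted p = 1).

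**Figure D4:**
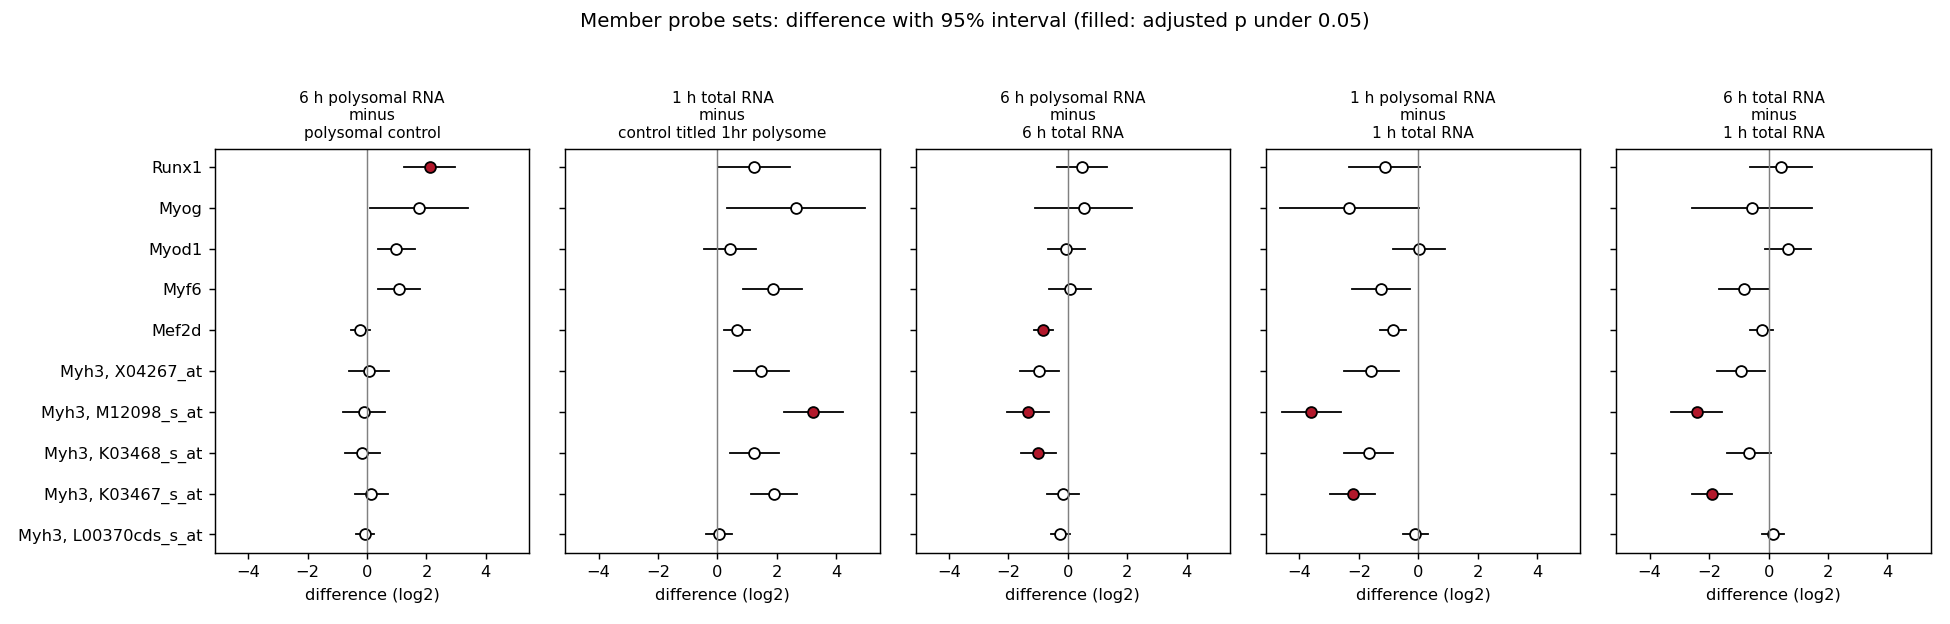
Log2 differences of the 10 member probe sets (rows) with their 95% intervals in 5 comparisons (panels), first group minus second, filled where the adjusted p was under 0.05. The 1 filled point of the factors against a control is Runx1 at 2.11, Myh3 by M12098_s_at is filled in 4 panels from -3.61 to 3.22, and Mef2d is filled at -0.83 for 6 h polysomal against total RNA.

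Other myosin heavy chains and acetylcholine receptor subunits were read beside Myh3. Of the 11 other sarcomeric and smooth muscle heavy chain probe sets, none was called against a control. Polysomal against total RNA at 6 h, where 8.77% of all probe sets were called, called 3 of them, all lower, namely both of the slow chain Myh7 (log2 -1.47 and -1.68, adjusted p = 0.00646 and 0.011) and 1 of 3 of the alpha cardiac chain Myh6 (-1.58, adjusted p = 0.0141). At 1 h the same difference did not pass for Myh7 (-1.82 and -2.14, adjusted p = 0.0611 and 0.0703). The part of the beta-actin ratio in these fraction differences was not tested either. Chrna1, the receptor's alpha subunit, had 2604 to 17801 in 1 h total RNA, against 404 to 654 in the control titled 1hr polysome (log2 3.74, SE 0.63, adjusted p = 0.0468). The 2 numbers of 1 h total RNA lay far apart for Chrna1 (log2 SD 1.85), and fits without single samples were made for the members only. Chrna1 was also lower in 1 h polysomal than in 1 h total RNA (geometric means of 431 and 6905, adjusted p = 0.0224) and lower in 6 h than in 1 h total RNA (log2 -3.56, adjusted p = 0.0333). None of the other 4 subunits was called in these 3 comparisons. In 1 h total RNA the geometric means were 1956 for Chrnd, 1944 for Chrnb1, 1441 for Chrng and 588 for Chrne, against 355, 712, 1062 and 372 in the control titled 1hr polysome (adjusted p 0.137 to 0.754). If the title of that control holds, fraction and contraction cannot be told apart in these values or in that of Chrna1 against it.

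The wider denervation-responsive list, with 11 genes tested, had 1 gene called higher in 6 h polysomal RNA against the polysomal control, the ankyrin repeat protein Ankrd1 (log2 4.52, adjusted p = 0.0333). The list's median was -0.10, against -0.04 for all genes, and 0.343% of all probe sets were called there. Chrna1 was the 1 call in 1 h total RNA relative to the control titled 1hr polysome, and the median was 0.95, against 0.01 for all genes. There 0.0745% of all probe sets were called, and if the title holds, fraction and contraction cannot be told apart. In 1 h polysomal against 1 h total RNA the median was -1.08, against -0.04 for all genes, with Chrna1 the 1 call. That comparison called 0.388% of all probe sets.

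The pathway lists gave calls mainly between the fractions at 6 h. None of 12 basic helix-loop-helix partners and Id or Hes repressors was called in any comparison (limma; 0 to 3 at an unadjusted p under 0.05), nor were the 9 tested developmental sarcomere and intermediate filament genes (0 to 5) or Cbfa2t2, the 1 Runx cofactor on the array (0). Over all 6707 probe sets, 173 to 1775 had such an unadjusted p, depending on the comparison. For Myh6 the developmental list took the brightest probe set, while a dimmer one was called lower in 6 h polysomal than in 6 h total RNA (limma, -1.58, adjusted p = 0.0141). Of 10 MEF2 and calcineurin pathway genes, 3 were higher and 1 lower in 6 h polysomal than in 6 h total RNA, where 8.77% of all probe sets were called. The catalytic calcineurin subunit Ppp3ca was higher by 0.89 (adjusted p = 0.00646), the kinase Camk1 by 0.79 (adjusted p = 0.0258) and Camk2g by 1.29 (adjusted p = 0.00646; its other probe set had the opposite sign), while Camk2d was lower (log2 -0.70, adjusted p = 0.0439). Ppp3ca was also higher in 1 h polysomal than in 1 h total RNA (1.20, adjusted p = 0.0423). Mef2d, in the same comparison at 6 h, was lower.

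Of 27 satellite cell, fusion and cell cycle genes none was called against a control (limma; 1 to 4 at an unadjusted p under 0.05). In 6 h polysomal against 6 h total RNA, where 8.77% of all probe sets were called, 4 of the 27 were. The cyclin Ccnd2 was higher (1.20, adjusted p = 0.0354), and the receptors Met (-0.80, adjusted p = 0.0414) and Fgfr4 (-0.72, adjusted p = 0.0326) and the growth factor Igf2 (-0.66, adjusted p = 0.0492) were lower. The list's median was -0.21 there, against -0.14 for all genes. None of 10 adult fast muscle genes was called in any comparison (0 to 2 at an unadjusted p under 0.05). Of 8 adult slow muscle genes, 6 h polysomal against 6 h total RNA called the tropomyosin Tpm3 higher (1.06, adjusted p = 0.0359; 3 of its 4 probe sets had this sign) and Myh7 lower. The share called over all probe sets was again 8.77%.

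Of 43 tested markers of cells other than muscle fibres, 5 were called in 6 h polysomal against 6 h total RNA, 11.6%, near the 8.77% over all probe sets. They were 2 of 12 for macrophages and other haematopoietic cells (Coro1a at 1.45 and C1qc at -0.60, list median 0.09), 1 of 3 for red cells (Slc4a1 at -0.77, list median -0.05), 1 of 5 for nerve and Schwann cells (Ngfr at -0.87, list median -0.40) and 1 of 3 for adipocytes (Fabp4 at 1.39, list median 1.05). The lists of neutrophils, of T, B and mast cells, of endothelium and smooth muscle and of fibroblasts had none. The part of such cells in the Mef2d and Myh3 results was not tested.

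The genes most like each member were found by the Pearson correlation over the 18 replicates with 3902 other genes. These values describe samples that share groups and are given without a test. Runx1 was most like Ankrd1 (0.84), Hbegf (0.83) and Pdpn (0.82). Myh3 by K03467_s_at was most like Chrna1 (0.93), and by M12098_s_at most like Chrnb1 (0.88). K03467_s_at exceeded the floor on only 8 of 36 arrays, so the floor sets most of the values behind its correlation. Mef2d was most like Supt5h (0.94), Myod1 like Prdm2 (0.93), Myf6 like Copb1 (0.86) and Myog like S1pr2 (0.81).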

How the data were processed

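The authors deposited 1 linear signal intensity per probe set and array (8799 probe sets, 59 of them controls left out here). The software and scaling behind it are not given in the sources used here. Trimmed means of the arrays, leaving out 2% at each end, lay between 801.0 and 801.9, so the deposited scaling was kept. The number of arrays limits the precision.

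Signals were floored at the 40th percentile of all values, 129.5, and put on the log2 scale. Tests covered 6707 probe sets, those exceeding this floor on 4 or more arrays. Averaging both arrays of each number gave 18 replicates. A single limma model (version 3.58.1, R 4.3.3) held all 6 groups without covariates, with two-sided tests and Benjamini-Hochberg adjustment over all 6707 at a threshold of 0.05. It was tested on simulated data.

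Gene names came from GEO's platform annotation, updated through Entrez IDs (7006 probe sets with 1 symbol, 308 with several, 1426 with none). A listed gene was represented by its brightest probe set. All member probe sets, and every list member that passed, were named. The members and lists were chosen with earlier results of these data known.

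Same-numbered samples of 6 h polysomal RNA and the polysomal control deviated together (correlations of 0.456, 0.538, 0.444 and 0.431 for numbers 1 to 4), so the number pairs them, by the data and not by the labels. Between 1 h and 6 h of a fraction, and between the controls, such correlations were only -0.084 to 0.051. A block over all groups takes the numbers to match there as well, which the data did not show. The alternatives tried were other floors, scalings and filters, the number as a block, each array as a sample, other controls, fewer groups in the fit, and samples left out. Leaving out single arrays, splitting numbers 1 and 2 from 3 and 4, and the block with only 2 groups in the fit were chosen after seeing the data.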

Additional observations from a re-analysis of the deposited data

Results flagged for a closer look

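In 3 of the 29 groups of 4 numbers examined, 1 number lay far from the others by Dixon's criterion for 4 values. Mef2d in number 4 of the polysomal control had a geometric mean signal of 825.8, where the other 3 numbers had 958.6 to 964.3. Myh3 by K03467_s_at in number 2 of 6 h polysomal RNA stood at 195.1, where the others were at the floor of 129.5. Myh3 by L00370cds_s_at in number 1 of 6 h polysomal RNA stood at 149.2, where the others lay between 129.5 and 130.5. For both Myh3 probe sets the floor fixes the other values, so that any value clear of it meets the criterion. The rate of about 1 group in 20 that chance gives applies to neither.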

How the results depend on the processing

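The 9 called member results were refitted 136 times in all, with 75 fits still called, 61 not called and 0 changes of sign. The 91 uncalled results were refitted 1514 times. Of these fits 27 passed, in the same direction, and 108 changed sign without passing. With 2 to 4 numbers per group, many calls ended when 1 sample was left out, and the cause was not tested beyond the smaller number of samples. Leaving out a number that leaves a group with 1 sample assumes that it varies like the other groups.

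For 6 h polysomal RNA against the polysomal control, the count of 1 member called (23 in the series) became 0 after quantile normalization (20 in the series), 0 without the filter (8), 0 with the other control (16), and 0 with numbers 1 and 2 only or 3 and 4 only (0 each). It was 2 with only the groups compared in the fit (62 in the series), 3 with each array as a sample (106) and 0 to 1 with 1 number left out (7 to 38). Runx1 stood at 2.06 after quantile normalization (adjusted p = 0.0525), 2.11 without the filter (adjusted p = 0.127), 2.12 with the other control (adjusted p = 0.106), 1.73 with numbers 1 and 2 (adjusted p = 1) and 2.49 with numbers 3 and 4 (adjusted p = 0.349). With 1 number left out it was 1.99 to 2.30. With the number as a replicate block it was 2.11, at an adjusted p of 0.0396 with all groups and 0.087 with only these 2. Myf6 passed in the second (0.0324), and Myog and Myod1 passed in neither blocked fit.

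For 1 h total RNA and the control titled 1hr polysome, the count of 1 (5 in the series) became 0 with the floor at the 20th percentile, with a floor of 16 and with only the groups compared (0 in the series each). It was 3 with the block (28 in the series), 4 with each array as a sample (113), 6 against the polysomal control (564 in the series) and 5 without the array of number 2 (202 in the series), and 0 to 2 with 1 number left out (0 to 19). M12098_s_at was 3.22 in each of the 3 fits with no call (adjusted p 0.075, 0.0976 and 0.178), and 2.52 to 3.93 with 1 number left out.

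For 6 h polysomal against 6 h total RNA, the count of 3 (588 in the series) became 1 with a floor of 16 (445), 1 with only the groups compared (128) and 1 to 3 with 1 number left out (247 to 1099). Mef2d was -0.83 with only the groups compared (adjusted p = 0.0547), and -0.96 to -0.77 with 1 number left out. K03468_s_at was -0.99 with the floor at the 20th percentile (adjusted p = 0.0859), with a floor of 16 (0.095), without the filter (0.067) and with only the groups compared (0.109), -0.75 after quantile normalization (0.122), -0.84 after scaling to the 75th percentile (0.0808) and -1.11 to -0.73 with 1 number left out. M12098_s_at was -1.42 with a floor of 16 (adjusted p = 0.0593) and -1.56 to -1.20 with 1 number left out. Same-numbered samples of these 2 groups deviated together more weakly, with correlations of 0.073, 0.248, 0.162 and 0.218 for numbers 1 to 4. Number 2 was not best matched with its own number. The block gave 4 member calls and 766 in the series.

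For 1 h polysomal against 1 h total RNA, the count of 2 (26 in the series) became 1 with a floor of 16 (7), 0 with only the groups compared (45), 4 with the block (206), 4 with each array as a sample (364) and 0 to 3 with 1 number left out (1 to 85). K03467_s_at was -3.77 with a floor of 16 (adjusted p = 0.0607), -2.21 with only the groups compared (0.17) and -2.87 to -1.55 with 1 number left out. M12098_s_at was -3.61 with only the groups compared (adjusted p = 0.107) and -4.31 to -2.90 with 1 number left out.

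For 6 h against 1 h total RNA, the count of 2 (4 in the series) became 0 with the floor at the 20th percentile, with a floor of 16, with only the groups compared and with the block (0 in the series each), 1 without the filter (11) and 0 to 2 with 1 number left out (1 to 15). K03467_s_at was -2.56 at the 20th percentile (adjusted p = 0.227), -2.57 with a floor of 16 (0.342), -1.90 with only the groups compared (0.942), -1.75 with the block (0.0721) and -2.56 to -1.25 with 1 number left out. M12098_s_at was -2.42 at the 20th percentile (adjusted p = 0.205), with a floor of 16 (0.224), without the filter (0.0613) and with only the groups compared (0.942), -2.15 with the block (0.156) and -3.12 to -1.71 with 1 number left out. For the change of the polysomal minus total difference, the count of 0 became 0 to 1 with 1 number left out (0 to 14 in the series).

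Low signal limits K03467_s_at, above the floor on 8 of 36 arrays, whose values here move with the floor, and L00370cds_s_at, above it on 18.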
